A study of Mus musculus with 10 samples.

Results

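The comparison set 4 arrays of liver RNA from mice gavaged with 5 g/kg ethanol against 3 arrays of liver RNA from mice gavaged with maltose. These are 7 of the 10 arrays in the series, chosen by their labels; the other 3 hold livers from mice given 7 g/kg ethanol. Maltose, a sugar, was given in the amount whose calories equal those of 5 g/kg ethanol, so the comparison is matched in calories. The mice of both groups were male C57BL/6N, the tissue was fresh liver, and neither an age nor the time between gavage and collection is given in the labels. There was no group without ethanol or maltose, so each difference is ethanol relative to maltose. Each RNA carried the red dye Cy5 and was hybridised to a 2-colour Agilent array with a Cy3-labelled commercial mouse total RNA. The labels name this reference an assorted RNA but give its tissue as liver of the same strain, and which holds is not settled by them, so a level relative to the reference has no fixed meaning beyond these arrays. Nothing in the labels says that replicates are separate animals, so the tests below measure the spread between these samples, which may be partly technical.

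Ethanol is oxidised in hepatocytes by alcohol dehydrogenases, by the cytochrome P450 enzyme CYP2E1 and by catalase to acetaldehyde, which aldehyde dehydrogenases turn into acetate. A smaller part is joined to fatty acids by esterases and transferases, the nonoxidative route named in the title of the series. Both routes run in an organ that also makes plasma proteins in its endoplasmic reticulum, clears drugs and steroids, stores glycogen and follows the daily clock, and the results are ordered by these functions.

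Values are log2 of liver Cy5 over reference Cy3 after normalisation, so 0 means as bright as the reference and 1 means 2 times as bright. They are listed for maltose arrays 1 to 3 and then ethanol arrays 1 to 4, and an array is left out where the scanner marked its spot as an outlier. A difference is ethanol minus maltose with its standard error (SE) from limma, and a gene passed where the Benjamini-Hochberg adjusted p over 26124 genes was under 0.05. Of these genes 992 passed (3.80%), 582 of them higher after ethanol (2.23%) and 410 lower (1.57%). At least 2-fold were 164 of the higher and 40 of the lower genes. Among the 15111 genes with a symbol, 770 passed (5.10%), 453 higher (3.00%) and 317 lower (2.10%), which is the background for the gene lists below. The median difference over all genes was 0.0026. Without overlap between the 2 groups were 4425 genes (16.9%), and 982 of the 992 passing genes were among them.

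Arrays sat on 4 slides: maltose 1 with ethanol 1, maltose 2 with ethanol 2, maltose 3 with ethanol 4, and ethanol 3 with no maltose array. This gave up to 3 differences within a slide for each gene. Of the 893 passing genes with all of them, 891 had the same sign on each slide. The groups did not overlap in 982 of the 992 passing genes, which fixes that sign, so this is no separate check. With slide as a block 884 genes passed, of which 777 were among the 992. Median Cy5 signal was 121 to 215 over a background of 21 to 24, and 72.7% to 86.2% of spots were well above background. Correlations across genes were 0.70 to 0.74 between maltose arrays, 0.52 to 0.66 between ethanol arrays and 0.31 to 0.54 between the groups. Of 13 hepatocyte markers tested, 2 rose and none fell (median 0.48, and 0.14 to 0.58 over the settings tried). The 2 were the plasma protein genes Fgb and Ahsg, whose limits are given below, and 1 or 2 markers rose over leave-one-out fits. Albumin (Alb) lay above the reference at 1.23, 0.76 and 1.20 on the maltose arrays and 1.11, 1.17, 1.48 and 1.33 on the ethanol arrays. A lower value in bulk liver can mean fewer cells of a type or less RNA per cell, and these cannot be told apart here.

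The reference was close to both groups. Across genes its Cy3 signal correlated at 0.986 with maltose Cy5 and at 0.991 with ethanol Cy5, and 99.1% of maltose means and 99.8% of ethanol means lay within 1 log2 unit of it. In 756 of the 992 passing genes (76.2%) the maltose mean lay farther from the reference than the ethanol mean, against 52.7% of all genes. The median distance from the reference in passing genes was 0.48 for maltose and 0.21 for ethanol. Tested without the liver channel, the Cy3 signal passed for 0 of 26124 genes in limma, with 110 at an unadjusted p under 0.05. Tested without the reference, Cy5 alone passed for 128 genes. In these tests each channel was normalised by itself, so a gene's Cy5 and Cy3 differences do not add up to that of its log ratio. For 31 passing genes with a mean reference log2 signal over 15, a limit set after the values were seen, the median ratio of the Cy5 difference to the difference of the log ratio was 0.722, against 0.995 for the other 961. The plot of both channels shows these bright genes, and their Cy5 and Cy3 values stand beside them below.

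**Figure D1:**
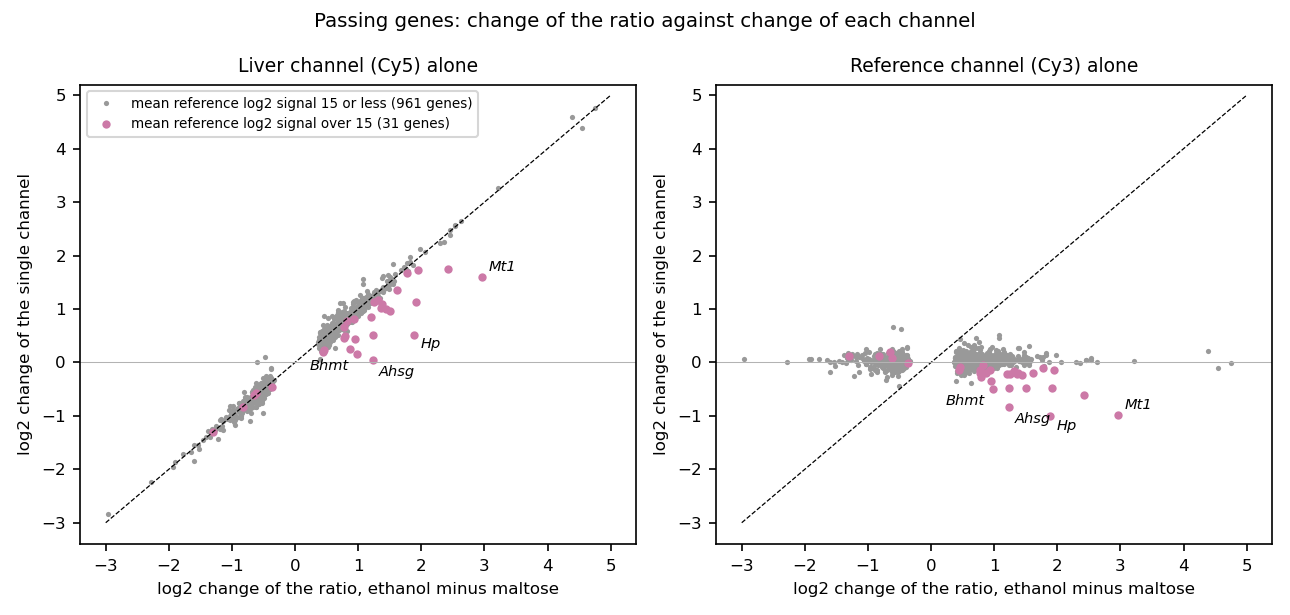
Differences (ethanol minus maltose, log2) of the 992 passing genes: the liver channel Cy5 alone (left) and the reference channel Cy3 alone (right) against the log ratio, with the line of equal values dashed and genes with a mean reference log2 signal over 15 in pink. Most genes lie on the dashed line at left and near 0 at right, while bright genes such as Mt1, Hp and Ahsg lie off both.

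Many genes for protein folding in the endoplasmic reticulum (ER) rose after ethanol. In the ER, chaperones and foldases shape secreted proteins. When unfolded protein builds up, the sensors ATF6, IRE1 and PERK respond. Chaperone genes are switched on through promoter elements that bind ATF6 and XBP1. Of 18 chaperones and foldases tested, 10 rose and 0 fell, with a median difference of 0.62. A well-known element in these promoters is the ER stress response element, spelled here as CCAAT and CCACG with 9 bases of any kind between, searched on both strands from 250 bases before to 50 after the start. It was found in 39 of 32851 promoters (0.119%) of the RefSeq table for build GRCm38.p6. Of the 8 passing chaperones and foldases with a promoter in that table, 6 held it, and of 8 that did not pass, 1 did (Canx). The stretches below show it in capitals, CCAAT first or, on the other strand, CGTGG first, with 20 bases on each side.
Creld2: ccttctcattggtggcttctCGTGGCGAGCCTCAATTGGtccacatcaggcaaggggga
Hsp90b1: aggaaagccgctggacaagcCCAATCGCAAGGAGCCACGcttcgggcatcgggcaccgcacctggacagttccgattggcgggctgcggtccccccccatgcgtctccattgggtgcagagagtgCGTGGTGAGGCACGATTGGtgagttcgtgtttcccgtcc
Ero1b: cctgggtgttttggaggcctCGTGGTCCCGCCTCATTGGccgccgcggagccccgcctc
Pdia6: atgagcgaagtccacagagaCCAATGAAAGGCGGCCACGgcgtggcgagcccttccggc
Dnajc3: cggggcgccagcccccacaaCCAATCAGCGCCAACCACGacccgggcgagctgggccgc
Calr: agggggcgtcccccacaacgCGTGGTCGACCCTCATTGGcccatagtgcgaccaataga
Their positions are chr15:88819500-88819558 (plus strand), chr10:86705513-86705676 (minus strand), chr13:12565662-12565720 (plus strand), chr12:17266471-17266529 (plus strand), chr14:118937807-118937865 (plus strand) and chr8:84847055-84847113 (minus strand). Hsp90b1 holds the element 2 times. The shorter CCACG alone was in 32.8% of all promoters and in 8 of the 8 passing genes. A match is a description of letters and says nothing about binding in these livers.

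Creld2, a secreted ER protein with a foldase domain, read -2.09, -2.02 and -2.32 on the maltose arrays and 0.87, 0.15 and 0.15 on ethanol arrays 1, 2 and 3, a rise of 2.53 ± 0.23 SE, 5.78-fold higher, adjusted p = 5.21e-05. Manf, an ER-resident factor released under ER stress, read -1.21, -1.16 and -1.35 on the maltose arrays and 1.10, 0.68, 0.81 and -0.50 on the ethanol arrays (1.77 ± 0.30 SE, adjusted p = 0.00403). The groups did not overlap for either gene, and ethanol array 4 was the lowest ethanol array for Manf. Hyou1, a large ER chaperone, read -0.90, -0.73 and -0.27 on the maltose arrays and 1.02, 0.50, 1.01 and 0.12 on the ethanol arrays (1.30 ± 0.22 SE, adjusted p = 0.00391). Ero1b, an oxidase that feeds disulfide bonds to the foldases, read -0.96, -0.70 and -1.26 on the maltose arrays and 0.52, -0.074, 0.076 and -0.16 on the ethanol arrays (1.07 ± 0.17 SE, adjusted p = 0.00219). Within slides, Manf was higher by 0.85 to 2.31, Hyou1 by 0.39 to 1.92 and Ero1b by 0.63 to 1.49. The foldase Pdia6 read -0.61, 0.085 and -0.56 on the maltose arrays and 0.64, 0.32 and 0.63 on ethanol arrays 1, 2 and 3 (0.89 ± 0.17 SE, adjusted p = 0.00910), with maltose array 2 nearest to the ethanol arrays. The chaperones Sdf2l1 (1.55 ± 0.24 SE, adjusted p = 0.00219), Hsp90b1 (1.38 ± 0.21 SE, adjusted p = 0.00173) and Dnajc3 (0.85 ± 0.13 SE, adjusted p = 0.00263) rose as well. Calr, a chaperone of glycoproteins, and Ero1a, the other oxidase, were picked after their values were seen and complete the passing members. Calr rose by 0.82 ± 0.17 SE, adjusted p = 0.0134, and Ero1a by 0.41 ± 0.10 SE, adjusted p = 0.0419. Canx, the membrane-bound partner of Calr and also picked afterwards, read -0.12, 0.15 and -0.12 on the maltose arrays and 0.32, 0.40, 0.67 and 0.17 on the ethanol arrays and did not pass (0.42, adjusted p = 0.116). Hspa5, the main ER chaperone, was not in the test because too many of its spots carried outlier marks. With those spots kept, its difference was 2.01 (adjusted p = 0.000864), and that of the foldase Pdia4 was 1.18 (adjusted p = 0.0105). Over leave-one-out fits 8 to 11 of the 18 passed. Whole families by symbol moved less. Of 14 protein disulfide isomerases 1 rose and 0 fell (7.14%), with a median of 0.017 that changed sign under some settings. Of 37 Hsp40 cochaperones 1 rose and 0 fell (2.70%, median -0.0068), beside 5.10% passing among genes with a symbol. Pdia6 passed in 6 of 7 leave-one-out fits (adjusted p up to 0.0523, without maltose 1), Calr in 6 (adjusted p up to 0.0672, without maltose 3) and Ero1a in 1 (adjusted p up to 0.181, without maltose 3).

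Some genes of ER-associated degradation and of the ER stress sensors rose as well. Of 19 genes for ER-associated degradation, which pulls misfolded proteins out of the ER for destruction, 4 rose and 0 fell, with a median difference of 0.08 that changed sign under some settings. Syvn1, the ubiquitin ligase at the centre of the pathway, read -1.23, -1.18 and -1.38 on the maltose arrays and 0.34, -0.063, 0.13 and -0.64 on the ethanol arrays. It rose by 1.21 ± 0.20 SE, 2.31-fold higher, adjusted p = 0.00323, and within slides by 0.74 to 1.57; a dimmer probe of the gene gave 0.60 ± 0.13 SE. Its promoter held the same element, shown in capitals, at chr19:6046512-6046570 (plus strand).
Syvn1: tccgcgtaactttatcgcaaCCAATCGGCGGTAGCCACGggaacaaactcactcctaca
The conjugating enzyme Ube2g2 read -0.95, -0.84 and -1.08 on the maltose arrays and 0.14, -0.029, -0.19 and -0.06 on the ethanol arrays (0.93 ± 0.12 SE, adjusted p = 0.000692), with no overlap. The channel component Derl2 (0.52 ± 0.13 SE, adjusted p = 0.0392) and the mannosidase-like Edem1 (0.50 ± 0.13 SE, adjusted p = 0.0458) rose less. Of 14 ER stress sensors and factors 2 rose (Atf6 and Manf), of 38 genes of ER translocation and N-glycosylation 2 rose, of 34 coat genes of COPI and COPII vesicles 1 rose, and 0 fell in these lists. The shares for translocation (5.26%) and for vesicles (2.94%) lie near the background of 5.10% passing and 3.00% higher among genes with a symbol, and both counts were 0 in some leave-one-out fits, such as that without ethanol array 1. The sensor Atf6 read -0.59, -0.35 and -0.54 on the maltose arrays and 0.049, 0.012 and 0.074 on ethanol arrays 1, 3 and 4 (0.54 ± 0.10 SE, adjusted p = 0.0112). Xbp1 read -0.84, -0.76 and -1.03 on the maltose arrays and -0.38, -0.22, 0.014 and -0.91 on the ethanol arrays and did not pass (0.50, adjusted p = 0.129), with ethanol array 4 among the maltose values. Ddit3, which encodes the stress factor CHOP, read -0.40, -0.31 and -0.33 on the maltose arrays and 0.17, 0.058, 0.40 and -0.25 on the ethanol arrays and did not pass (0.44, adjusted p = 0.0771). The signal peptidase subunit Spcs2 (0.52 ± 0.12 SE, adjusted p = 0.0283), the oligosaccharyl transferase subunit Stt3b (0.50 ± 0.13 SE, adjusted p = 0.0485) and the vesicle fusion factor Sec22b (0.55 ± 0.13 SE, adjusted p = 0.0256) rose, each by under 1.5-fold. Derl2 kept its call in 2 of 7 fits without 1 array (adjusted p up to 0.169, without maltose 1), Edem1 in 1 (adjusted p up to 0.162, without maltose 3), Atf6 in 5 (adjusted p up to 0.0619, without maltose 1) and Spcs2 in 1 (adjusted p up to 0.143, without maltose 3). Stt3b kept its call in 2 of 7 fits without 1 array (adjusted p up to 0.218, without maltose 3) and Sec22b in 2 (adjusted p up to 0.132, without maltose 3). Derl2 (adjusted p = 0.0626) and Edem1 (adjusted p = 0.0658) did not pass once slide was a block.

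**Figure D2:**
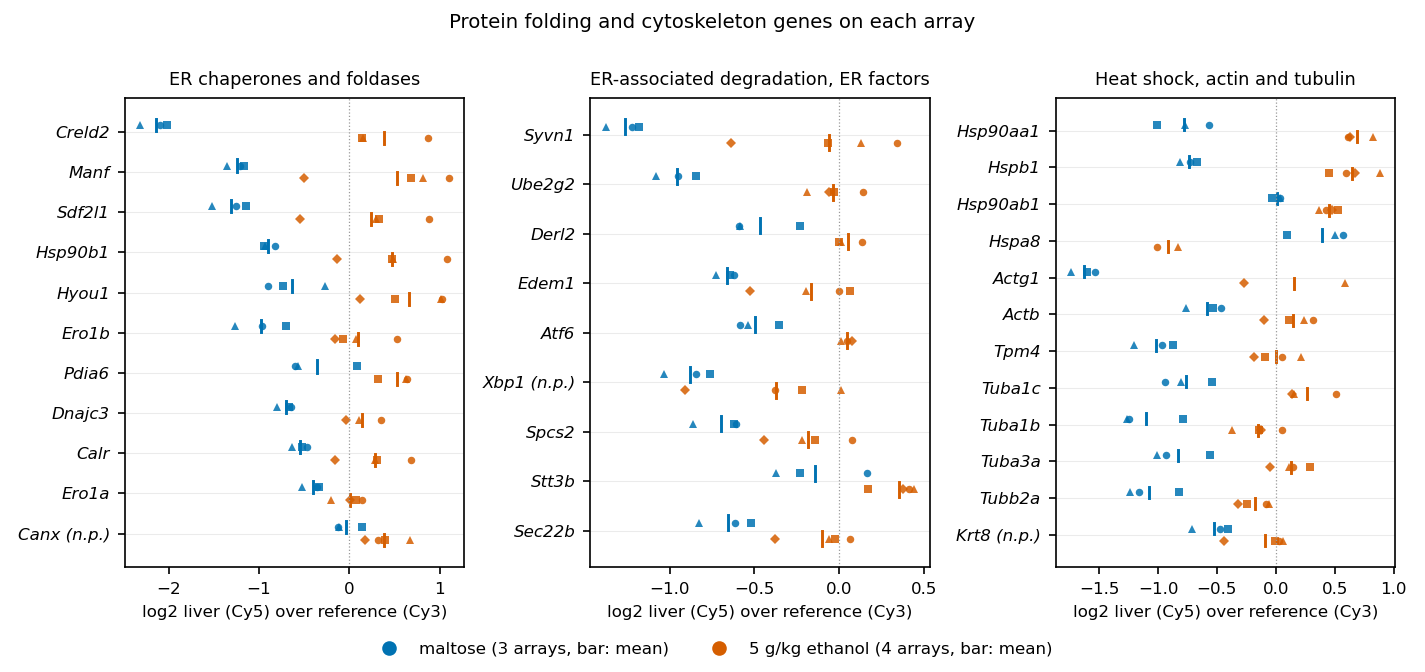
Log2 liver over reference on each maltose array (blue, n = 3) and ethanol array (orange, n = 4) for genes of ER folding, ER-associated degradation and the ER, and heat shock, actin and tubulin; bars are group means, marker shapes number the arrays, and n.p. marks genes that did not pass. Creld2 has the widest gap, while Xbp1 and Krt8 overlap through ethanol array 4.

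Outside the ER, 5 of 24 cytosolic and mitochondrial heat shock genes rose and 1 fell (median 0.22). Hspb1, a small heat shock protein that binds unfolded proteins and actin, read -0.73, -0.67 and -0.81 on the maltose arrays and 0.60, 0.45, 0.88 and 0.67 on the ethanol arrays (1.39 ± 0.12 SE, 2.61-fold higher, adjusted p = 1.62e-05). Hsp90aa1, the stress-inducible cytosolic HSP90, read -0.56, -1.01 and -0.77 on the maltose arrays and 0.61, 0.82 and 0.63 on ethanol arrays 1, 3 and 4 (1.47 ± 0.13 SE, adjusted p = 4.01e-05). Its constitutive partner Hsp90ab1 rose by a smaller amount, from 0.031, -0.032 and 0.036 on the maltose arrays to 0.43, 0.52, 0.37 and 0.47 on the ethanol arrays (0.44 ± 0.093 SE, adjusted p = 0.0166). The groups were apart for these 3 genes. Hspb8 (0.81 ± 0.20 SE, adjusted p = 0.0392) and Hspa4l (0.61 ± 0.15 SE, adjusted p = 0.0324) were the other members that rose, and dimmer probes of Hspa4l gave 1.10 and 1.45. Hspa8, the constitutive HSP70, went the opposite way, at 0.57, 0.10 and 0.50 on the maltose arrays and -1.01 and -0.83 on ethanol arrays 1 and 3. It fell by 1.31 ± 0.16 SE, 2.48-fold lower, adjusted p = 0.000623, on a probe with outlier marks on ethanol arrays 2 and 4. Hsp90ab1 kept its call in 4 of 7 fits without 1 array (adjusted p up to 0.0676, without maltose 2), Hspb8 in 2 (adjusted p up to 0.144, without maltose 3) and Hspa4l in 2 (adjusted p up to 0.159, without maltose 1). Hspa4l (adjusted p = 0.0606) did not pass with a slide block.

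Some cytoskeleton genes rose too. Of 32 listed genes 7 rose and 0 fell (median 0.28), and 14 of 14 tubulins tested had a positive difference, 4 of which passed (median 0.43, and 0.38 to 0.50 over the processing settings tried). Actg1, cytoplasmic gamma actin, read -1.54, -1.61 and -1.74 on the maltose arrays and 0.58 and -0.27 on ethanol arrays 3 and 4 (1.78 ± 0.21 SE, adjusted p = 0.000880). Actb, beta actin, read -0.47, -0.53 and -0.76 on the maltose arrays and 0.32, 0.11, 0.24 and -0.10 on the ethanol arrays (0.73 ± 0.12 SE, adjusted p = 0.00268). Tpm4, a tropomyosin that lines actin filaments, read -0.97, -0.88 and -1.20 on the maltose arrays and 0.056, -0.093, 0.22 and -0.18 on the ethanol arrays (1.01 ± 0.13 SE, adjusted p = 0.000524). No ethanol value of these genes fell into the maltose range. Myh9, a non-muscle myosin named after its value was seen, rose by 0.57 ± 0.10 SE, adjusted p = 0.00378. The tubulins Tuba1c (1.03 ± 0.14 SE, adjusted p = 0.00129), Tuba1b (0.95 ± 0.15 SE, adjusted p = 0.00238), Tuba3a (0.96 ± 0.13 SE, adjusted p = 0.000672) and Tubb2a (0.90 ± 0.15 SE, adjusted p = 0.00301) rose by 1.86-fold to 2.04-fold. Dimmer probes gave 0.32 for Tuba3a and 1.25 and 1.67 for Tubb2a. Tubulin copies are similar in sequence, and the probe letters needed to tell them apart were not used here. Krt8, the hepatocyte keratin, read -0.47, -0.40 and -0.71 on the maltose arrays and 0.029, -0.0062, 0.063 and -0.44 on the ethanol arrays and did not pass (0.44, adjusted p = 0.0853). Over leave-one-out fits 7 to 10 cytoskeleton genes and 4 or 5 tubulins passed. 

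Acute phase proteins, which hepatocytes release into plasma when interleukin-6 and interleukin-1 signal through STAT3 and NF-kB, were the list with the highest median of those described here. Of 22 tested, 12 rose and 0 fell, with a median difference of 1.25. The medians of single ethanol arrays ran from 0.32 on array 4 to 1.92 on array 3, against -0.04 to 0.03 on the maltose arrays. Fgg, a fibrinogen chain, read -1.57 and -1.58 on maltose arrays 1 and 3 and -0.18, -0.29, 0.44 and -1.23 on the ethanol arrays (1.26 ± 0.30 SE, adjusted p = 0.0361). Fgb, another chain, read -0.90, -1.41 and -0.81 on the maltose arrays and 0.10, 0.21, 1.22 and -0.75 on the ethanol arrays (1.24 ± 0.31 SE, adjusted p = 0.0419). Orm3, an orosomucoid that carries lipophilic compounds, read -1.78, -1.86 and -1.96 on the maltose arrays and -0.20, 0.56 and -1.20 on ethanol arrays 1, 3 and 4 (1.59 ± 0.31 SE, adjusted p = 0.0107). Ethanol array 4 was the lowest ethanol array in each of the 3, and array 3 the highest. The serum amyloids Saa1 and Saa2, picked after their values were seen, read highest on the same array: Saa1 read -4.00, -4.30 and -3.58 on the maltose arrays and -1.43, -2.48, 1.27 and -3.81 on the ethanol arrays and did not pass (2.35, adjusted p = 0.135), nor did Saa2 (2.27, adjusted p = 0.111). Lbp, which hands bacterial lipopolysaccharide to its receptor, was more even, at -0.75, -0.86 and -0.97 on the maltose arrays and 0.21, 0.013, 0.28 and 0.027 on the ethanol arrays (0.99 ± 0.13 SE, adjusted p = 0.000814). Orm1, another orosomucoid and also picked afterwards, rose by 1.31 ± 0.28 SE, adjusted p = 0.0171. Hp, haptoglobin, is among the bright genes: its log ratio rose by 1.88 ± 0.23 SE, adjusted p = 0.000370, while Cy5 alone gave 0.52 and Cy3 alone -1.01. For Fgb the same values were 0.51 and -0.48. The part of the reference channel in these differences was not tested. Over leave-one-out fits 7 to 16 of the 22 passed, and with a slide block 9. Fgb passed in 1 of 7 leave-one-out fits (adjusted p up to 0.167, without maltose 2), Fgg in 1 (adjusted p up to 0.187, without maltose 1), Orm1 in 5 (adjusted p up to 0.0784, without maltose 3) and Itih3 in 1 (adjusted p up to 0.153, without maltose 2). Itih4 passed in 3 of 7 leave-one-out fits (adjusted p up to 0.0852, without maltose 1). Fgb (adjusted p = 0.0906), Fgg (adjusted p = 0.104) and Itih3 (adjusted p = 0.0701) did not pass once slide was a block.

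Protease inhibitors and binding proteins of plasma moved in both directions. Of 14 clade A serpins tested 5 rose and 1 fell. Serpina3c read -0.99, -0.81 and -0.94 on the maltose arrays and 0.42, -0.0041, 0.39 and -0.17 on the ethanol arrays (1.08 ± 0.15 SE, adjusted p = 0.00104). Serpina3n, the member most tied to inflammation, read -2.04, -2.27 and -2.14 on the maltose arrays and -0.26, -0.61, 0.061 and -1.62 on the ethanol arrays (1.54 ± 0.27 SE, adjusted p = 0.00534), with ethanol array 4 nearest to maltose. Serpina3m (0.94 ± 0.13 SE, adjusted p = 0.000858; Cy5 alone 0.43) and Serpina3k (0.87 ± 0.11 SE, adjusted p = 0.000539; Cy5 alone 0.25) rose as well, though less in the liver channel alone. Serpina3 genes are near-identical copies, so a probe may read more than the gene it is named for. The inter-alpha-trypsin inhibitor chains Itih4 (0.82 ± 0.18 SE, adjusted p = 0.0191) and Itih3 (0.73 ± 0.18 SE, adjusted p = 0.0373) rose, and Itih3 overlapped through ethanol array 4 at 0.27, 0.41, 0.62 and -0.34 on the ethanol arrays. Of 15 negative acute phase proteins, which usually fall in inflammation, 2 rose and 2 fell. Ahsg, fetuin A, rose by 1.23 ± 0.14 SE, adjusted p = 0.000268 as a log ratio, with Cy5 alone at 0.047 and Cy3 alone at -0.83. Serpina7, the thyroxine carrier, read -1.20, -0.59 and -0.77 on the maltose arrays and 0.25, -0.42, 0.96 and 0.80 on the ethanol arrays (1.25 ± 0.28 SE, adjusted p = 0.0215). The 2 that fell were Serpina6, the corticosteroid carrier, at 0.41, 1.22 and 0.60 on the maltose arrays and -1.28, -0.88, -0.42 and -0.85 on the ethanol arrays (-1.60 ± 0.21 SE, 3.03-fold lower, adjusted p = 0.000648), and Igfals, which holds IGF complexes in plasma, at 0.27, 0.43 and 0.34 on the maltose arrays and -0.66, -0.41, -0.97 and -0.63 on the ethanol arrays (-1.02 ± 0.12 SE, adjusted p = 0.000294). Serpina7 passed in 4 of 7 leave-one-out fits (adjusted p up to 0.121, without maltose 1).

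Receptors and signal carriers upstream of these proteins rose in part. Of 27 genes of IL-6, IL-1 and STAT3 signalling, 4 rose and 1 fell (median 0.11). Il1r1, the signalling IL-1 receptor, read -1.90, -1.28 and -1.80 on the maltose arrays and -0.053, 0.48, 0.46 and -0.49 on the ethanol arrays (1.76 ± 0.22 SE, 3.39-fold higher, adjusted p = 0.000378). Stat3 itself read -1.06, -1.10 and -1.12 on the maltose arrays and -0.19, 0.087, -0.049 and -0.57 on the ethanol arrays (0.91 ± 0.14 SE, adjusted p = 0.00167). For both genes each ethanol array lay above each maltose array, and the within-slide differences were 1.31 to 1.85 and 0.55 to 1.18. Bcl3, a nuclear partner of NF-kB induced by cytokines, read -1.58, -1.30 and -1.75 on the maltose arrays and -0.67, -0.38, 0.41 and -1.06 on the ethanol arrays (1.12 ± 0.25 SE, adjusted p = 0.0199). The kinase Pim3 was the member that fell, from 0.056, 0.41 and -0.18 on the maltose arrays to -1.14, -0.55, -0.58 and -0.73 on the ethanol arrays (-0.84 ± 0.20 SE, adjusted p = 0.0317). Cd14, a receptor for lipopolysaccharide made by macrophages and by stimulated hepatocytes, read -1.33, -0.83 and -1.52 on the maltose arrays and -0.019, 0.48, 0.23 and 0.28 on the ethanol arrays (1.47 ± 0.21 SE, adjusted p = 0.00129). Il10rb, a shared chain of interleukin-10 family receptors, read -1.38, -1.33 and -1.28 on the maltose arrays and -0.034, -0.43, 0.89 and -0.69 on the ethanol arrays (1.27 ± 0.27 SE, adjusted p = 0.0187). Of 26 complement genes 0 rose and 1 fell, Mbl2, the mannose-binding lectin, from 0.076, 0.54 and 0.37 on the maltose arrays to -0.22, -0.29, -0.29 and -0.21 on the ethanol arrays (-0.58 ± 0.11 SE, adjusted p = 0.00895). The share of complement genes passing, 3.85%, lies near the 5.10% of genes with a symbol, and the count was 0 without maltose array 2. Of 29 genes of coagulation and fibrinolysis 5 rose and 1 fell (median -0.05), and 2 to 5 rose over leave-one-out fits. F13b, the carrier chain of coagulation factor XIII, fell from 0.53, 0.46 and 0.57 on the maltose arrays to -0.085, 0.0085, 0.018 and 0.043 on the ethanol arrays (-0.53 ± 0.10 SE, adjusted p = 0.00776). Bcl3 kept its call in 5 of 7 fits without 1 array (adjusted p up to 0.0995, without maltose 3), Pim3 in 3 (adjusted p up to 0.148, without maltose 2), Il10rb in 4 (adjusted p up to 0.0792, without maltose 1) and Mbl2 in 6 (adjusted p up to 0.0507, without maltose 2).

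**Figure D3:**
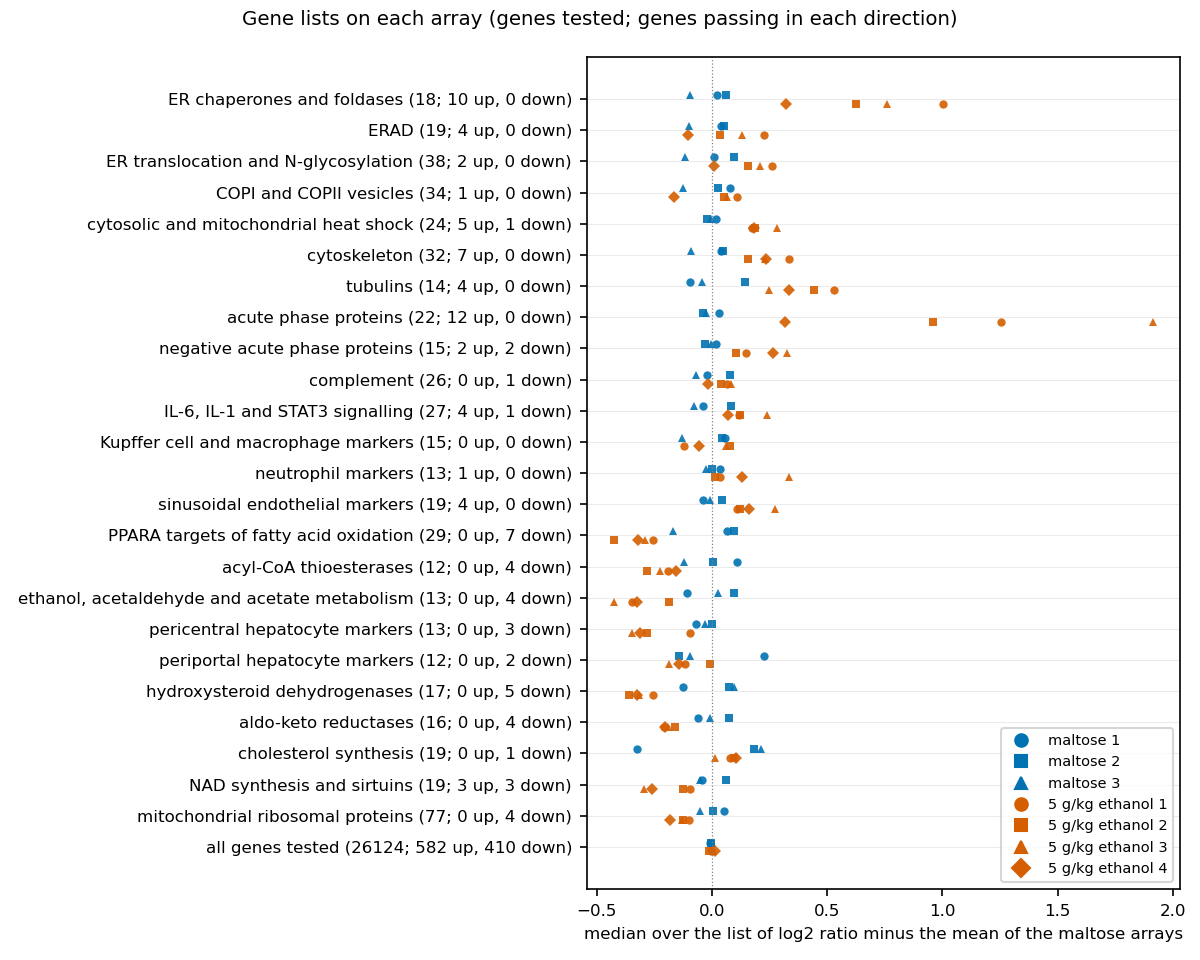
Median over each gene list of the log2 ratio minus the mean of the maltose arrays, for every array (blue maltose, orange ethanol, shapes as in the legend); brackets give genes tested and passing in each direction. The 4 ethanol arrays lie above the maltose arrays for ER chaperones, heat shock, tubulins and acute phase proteins and below them for PPARA targets, thioesterases and aldo-keto reductases, and all arrays lie near 0 over all genes.

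Cytochrome P450 genes, whose enzymes oxidise drugs, steroids and fatty acids, held some of the larger rises and some of the falls. Among the Cyp2b genes, Cyp2b10 is the classical target of the nuclear receptor CAR, whose activity was not tested here. Cyp2b13 read -4.90, -3.82 and -4.17 on the maltose arrays and 0.31, 0.52 and 0.55 on ethanol arrays 1, 3 and 4 (4.75 ± 0.25 SE, 27.0-fold higher, adjusted p = 3.95e-07), and Cyp2b9 read -2.04, -1.78 and -1.61 on the maltose arrays and 0.28 and 0.81 on ethanol arrays 1 and 3 (2.36 ± 0.22 SE, adjusted p = 0.000106). A dimmer probe of Cyp2b13 gave only 0.17 ± 0.23 SE, so its probes disagreed. Of the Cyp2c family, Cyp2c39, a retinoic acid and drug oxidase, rose by 0.69 ± 0.12 SE, adjusted p = 0.00522 beside the larger change of Cyp2c29 (1.50 ± 0.17 SE, adjusted p = 0.000332). Cyp3a13 read -0.45, -0.92 and -0.68 on the maltose arrays and 0.59, 0.70 and -0.033 on ethanol arrays 1, 3 and 4 (1.10 ± 0.20 SE, adjusted p = 0.00847). The groups stayed apart for these genes. Cyp2a4 and Cyp2a5, steroid and coumarin hydroxylases, went the other way. Cyp2a4 read 0.12, 0.70 and 1.13 on the maltose arrays and -0.89, -0.71 and -0.60 on ethanol arrays 1, 3 and 4 (-1.38 ± 0.24 SE, adjusted p = 0.00588), and Cyp2a5 read 0.067, 0.62 and 1.08 on the maltose arrays and -0.81 and -0.60 on ethanol arrays 3 and 4 (-1.29 ± 0.27 SE, adjusted p = 0.0191). The 2 genes are near-identical and a probe may read both; the same holds within Cyp2b and Cyp2c. Nr1i3, which encodes CAR, read 0.22, 0.45 and 0.73 on the maltose arrays and -0.10, 0.15 and -0.44 on ethanol arrays 1, 2 and 3 and did not pass (-0.60, adjusted p = 0.0589). Cyp2e1, the ethanol oxidase, read 0.42, 0.69 and 1.01 on the maltose arrays and 0.36, 0.55, 0.20 and 0.38 on the ethanol arrays and did not pass (-0.33, adjusted p = 0.230). Cyp2a5 passed in 4 of 7 leave-one-out fits (adjusted p up to 0.117, without ethanol 3).

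Some steroid-converting enzymes fell. Of 17 hydroxysteroid dehydrogenases 0 rose and 5 fell (median -0.33), and of 16 aldo-keto reductases 0 rose and 4 fell (median -0.16). The 5 are the Hsd3b genes, which oxidise or reduce the 3-position of steroids, on 1 stretch of chromosome 3. Hsd3b2 read 0.73, 1.16 and 1.22 on the maltose arrays and -0.48, -0.26, -0.25 and 0.024 on the ethanol arrays (-1.27 ± 0.15 SE, 2.42-fold lower, adjusted p = 0.000259), and its dimmer probes gave -0.46 and -1.11. Hsd3b3 read 1.02, 0.92 and 1.16 on the maltose arrays and -0.70, 0.058, -0.14 and 0.28 on the ethanol arrays (-1.16 ± 0.18 SE, adjusted p = 0.00222). Hsd3b5, a male-biased liver form, read -0.75, 1.23 and 0.49 on the maltose arrays and -1.47, -1.47, -2.03 and -1.36 on the ethanol arrays (-1.90 ± 0.33 SE, adjusted p = 0.00422), well above background on 3 of the 4 ethanol arrays. Each ethanol value of the 3 lay below each maltose value, though the maltose arrays of Hsd3b5 were far apart. Hsd3b1 (-0.65 ± 0.11 SE, adjusted p = 0.00398) and Hsd3b6 (-0.66 ± 0.15 SE, adjusted p = 0.0255), the latter named after its value was seen, fell less. The Hsd3b copies are similar enough that a probe may read several. Among aldo-keto reductases the 4 that fell were Akr1c genes, which reduce ketosteroids. Akr1c6 read -0.22, 0.68 and 0.27 on the maltose arrays and -0.76, -0.77, -0.99 and -0.77 on the ethanol arrays (-1.06 ± 0.16 SE, adjusted p = 0.00185), and Akr1c12 read 0.41, 0.61 and 0.49 on the maltose arrays and -0.19, -0.27, 0.064 and -0.059 on the ethanol arrays (-0.62 ± 0.11 SE, adjusted p = 0.00526). Akr1c19 (-1.34 ± 0.12 SE, adjusted p = 2.31e-05) and Akr1c13 (-0.44 ± 0.11 SE, adjusted p = 0.0384) completed the group. Hsd3b6 kept its call in 2 of 7 fits without 1 array (adjusted p up to 0.136, without maltose 3) and Akr1c13 in 1 (adjusted p up to 0.119, without maltose 1). Akr1c13 (adjusted p = 0.0668) did not pass with a slide block.

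Conjugating enzymes split within their families. Of 11 sulfotransferases, which add sulfate to steroids, bile acids and drugs, 3 rose and 2 fell. Sult1a1 rose by 1.36 ± 0.16 SE, adjusted p = 0.000327. Sult1d1 read -0.56 and -0.48 on maltose arrays 1 and 2 and 0.38, 0.76 and 0.57 on ethanol arrays 1, 3 and 4 (1.09 ± 0.20 SE, adjusted p = 0.00978). Sult1e1, the estrogen sulfotransferase, read -1.01, -1.09 and -0.63 on the maltose arrays and 0.46, 0.11, -0.34 and -0.40 on the ethanol arrays (0.87 ± 0.19 SE, adjusted p = 0.0176), with ethanol arrays 1 and 2 above 3 and 4. Sult1b1, which sulfates phenols and thyroid hormones and was named after its value was seen, fell by 0.55 ± 0.13 SE, adjusted p = 0.0333. Sult2a8, which sulfates bile acids, fell from 0.17 and 0.46 on maltose arrays 1 and 3 to -0.45, -0.65 and -0.34 on ethanol arrays 1, 3 and 4 (-0.80 ± 0.13 SE, adjusted p = 0.00604). Of 20 glutathione S-transferases 4 rose and 1 fell. Gstt3 read -0.92, -0.90 and -0.87 on the maltose arrays and 0.61 and 0.41 on ethanol arrays 2 and 3 (1.40 ± 0.12 SE, 2.64-fold higher, adjusted p = 0.000138), with values on 2 ethanol arrays. The mu-class genes Gstm3 (0.73 ± 0.14 SE, adjusted p = 0.00879), Gstm2 (0.62 ± 0.12 SE, adjusted p = 0.00998) and Gstm1 (0.43 ± 0.10 SE, adjusted p = 0.0283) rose, and Gstt2 fell from 0.95, 0.79 and 0.61 on the maltose arrays to 0.14, 0.20, -0.13 and -0.13 on the ethanol arrays (-0.76 ± 0.13 SE, adjusted p = 0.00353). Gstt2 and Gstt3 lie in the same gene cluster on chromosome 10 and moved in opposite directions with no overlap in either. Of 28 targets of the antioxidant factor NRF2 tested, 4 rose (Gstm1, Gstm3, Mt1 and Mt2) and 0 fell; Nqo1 (-0.46, adjusted p = 0.120) and Hmox1 (0.36, adjusted p = 0.212) did not pass. Sult1d1 passed in 5 of 7 leave-one-out fits (adjusted p up to 0.0822, without maltose 1), Sult1e1 in 5 (adjusted p up to 0.0856, without maltose 1), Sult1b1 in 2 (adjusted p up to 0.166, without maltose 3) and Sult2a8 in 6 (adjusted p up to 0.0759, without maltose 3). Gstm3 passed in 6 of 7 leave-one-out fits (adjusted p up to 0.0590, without maltose 1), Gstm2 in 6 (adjusted p up to 0.0669, without maltose 1) and Gstm1 in 2 (adjusted p up to 0.156, without maltose 1). Sult1d1 (adjusted p = 0.0705) and Gstm1 (adjusted p = 0.0611) did not pass once slide was a block.

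**Figure D4:**
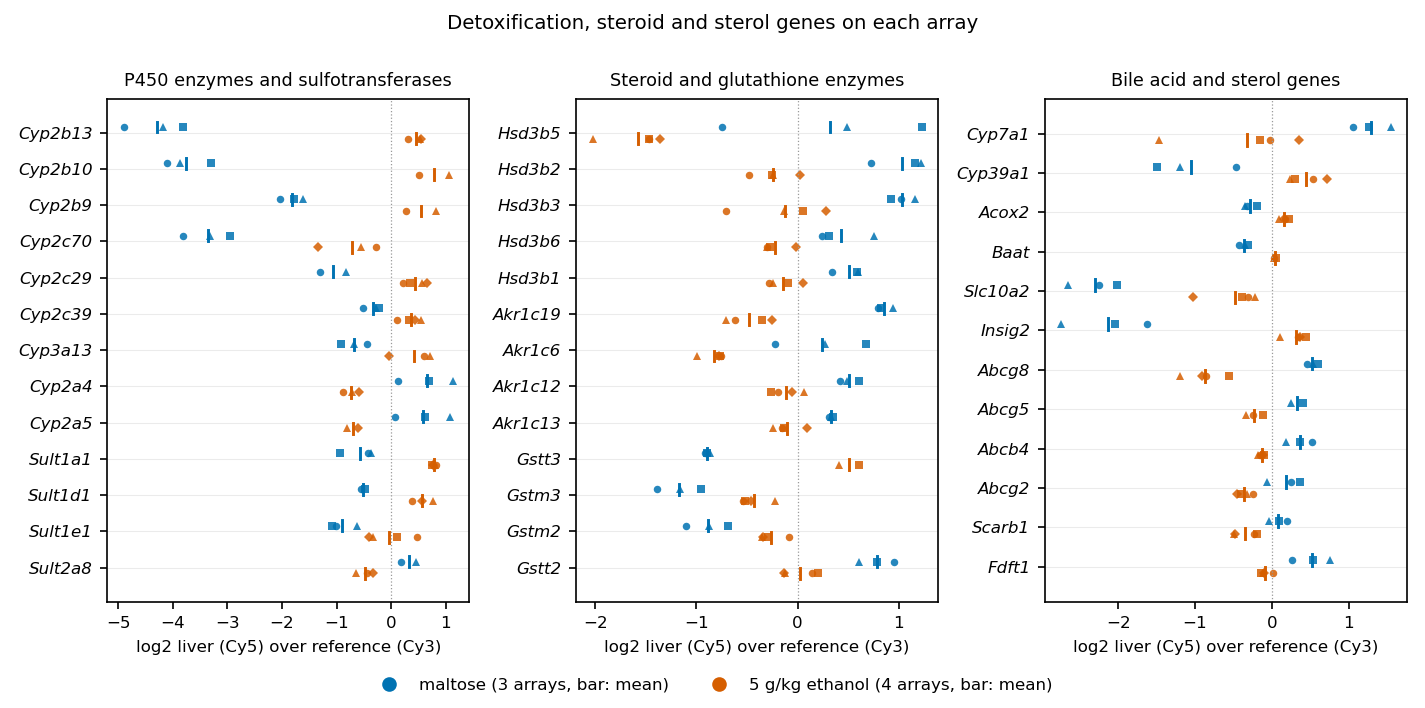
Log2 liver over reference on each maltose array (blue, n = 3) and ethanol array (orange, n = 4) for detoxifying, steroid and sterol genes that passed, with group means as bars. Cyp2b13 and Cyp2b10 stand near -4 after maltose and above 0 after ethanol, and Hsd3b and Akr1c genes lie lower after ethanol.

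Bile acids are made from cholesterol, starting with the enzyme CYP7A1, and are held in the body by reuptake. Of 15 genes of their synthesis and its regulators 3 rose (Cyp2c70, Acox2 and Baat) and 1 fell. The gene that fell was Cyp7a1, at 1.06, 1.27 and 1.55 on the maltose arrays and -0.019, -0.15, -1.47 and 0.36 on the ethanol arrays (-1.61 ± 0.36 SE, adjusted p = 0.0229), lowest on ethanol array 3. Its probes disagreed in sign, with a dimmer one at 0.57 ± 0.35 SE. Cyp39a1, outside that list, hydroxylates an oxysterol on a side path and read -0.47, -1.49 and -1.20 on the maltose arrays and 0.54, 0.30, 0.24 and 0.72 on the ethanol arrays (1.51 ± 0.25 SE, 2.84-fold higher, adjusted p = 0.00376). The side-chain oxidase Acox2 (0.45 ± 0.11 SE, adjusted p = 0.0354) and the amidating enzyme Baat (0.40 ± 0.10 SE, adjusted p = 0.0419) rose by small amounts. Cyp8b1, which directs synthesis to cholic acid, was out of the test for outlier marks, and with those spots kept its difference was -1.12 (adjusted p = 0.00113). Nr0b2, the repressor SHP, read 0.36, 0.32 and -0.16 on the maltose arrays and -0.22, 0.17, -0.22 and -0.08 on the ethanol arrays and did not pass (-0.26, adjusted p = 0.459). Slc10a2, the ileal-type bile acid importer also found in bile duct cells, read -2.25, -2.02 and -2.65 on the maltose arrays and -0.30, -0.39, -0.21 and -1.03 on the ethanol arrays. It rose by 1.82 ± 0.19 SE, 3.53-fold higher, adjusted p = 0.000174, and within slides by 1.62 to 1.94. Cyp7a1 passed in 4 of 7 leave-one-out fits (adjusted p up to 0.106, without maltose 3), Acox2 in 0 (adjusted p up to 0.138, without maltose 3) and Baat in 1 (adjusted p up to 0.165, without maltose 1). Acox2 (adjusted p = 0.0904) and Baat (adjusted p = 0.0642) did not pass with a slide block.

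Of 42 ABC transporters, pumps that move lipids and drugs across membranes, 1 rose, the cobalamin carrier Abcd4 (0.40 ± 0.10 SE, adjusted p = 0.0448), named after its value was seen, and 5 fell (Abcg8, Abcg5, Abcb4, Abcg2 and Abcb8). Abcg8 (-1.40 ± 0.14 SE, adjusted p = 9.51e-05) and Abcg5 form the pump for cholesterol into bile, and Abcg5 read 0.41 and 0.25 on maltose arrays 2 and 3 and -0.25, -0.11 and -0.33 on ethanol arrays 1, 2 and 3 (-0.56 ± 0.12 SE, adjusted p = 0.0224). Abcb4, which flips phosphatidylcholine into bile, read 0.53, 0.37 and 0.19 on the maltose arrays and -0.15, -0.10, -0.17 and -0.11 on the ethanol arrays (-0.50 ± 0.11 SE, adjusted p = 0.0191). Abcg2, a pump for drugs and urate, read 0.25, 0.36 and -0.066 on the maltose arrays and -0.24, -0.40, -0.32 and -0.46 on the ethanol arrays (-0.54 ± 0.12 SE, adjusted p = 0.0189). Scarb1, the receptor for HDL, fell from 0.20, 0.10 and -0.041 on the maltose arrays to -0.24, -0.19, -0.50 and -0.48 on the ethanol arrays (-0.44 ± 0.11 SE, adjusted p = 0.0442). Abcb8, a mitochondrial pump, fell by 0.61 ± 0.12 SE, adjusted p = 0.00930. The ethanol arrays lay below the maltose arrays for these genes. Insig2, which holds the SREBP factors in the ER, rose (2.45 ± 0.20 SE, adjusted p = 1.99e-05), but a dimmer probe of it gave -0.11 ± 0.22 SE. Of 18 genes of sterol sensing, uptake and efflux 1 rose and 3 fell (median -0.17). Of 19 cholesterol synthesis enzymes 1 fell, Fdft1 (-0.61 ± 0.13 SE, adjusted p = 0.0209, and 0.015 ± 0.11 SE on a dimmer probe), and 0 rose, and the sign of their median changed with the processing. Their share passing, 5.26%, lies near the 5.10% of genes with a symbol. Srebf1, a factor of lipid synthesis, did not pass (0.20, adjusted p = 0.841). Abcd4 kept its call in 1 of 7 fits without 1 array (adjusted p up to 0.166, without maltose 3), Abcg5 in 3 (adjusted p up to 0.159, without maltose 2), Abcb4 in 5 (adjusted p up to 0.115, without maltose 1) and Abcg2 in 5 (adjusted p up to 0.0932, without maltose 2). Abcb8 kept its call in 6 of 7 fits without 1 array (adjusted p up to 0.0517, without maltose 1), Scarb1 in 1 (adjusted p up to 0.202, without maltose 1) and Fdft1 in 3 (adjusted p up to 0.115, without maltose 3). Abcg5 (adjusted p = 0.119) did not pass once slide was a block.

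Some lipid genes that the fatty acid receptor PPARA controls fell. Of 29 PPARA targets of fatty acid oxidation 0 rose and 7 fell, with a median difference of -0.31; over leave-one-out fits 5 to 8 fell. The 7 were Ppara itself (-1.26, adjusted p = 2.81e-05), Cpt1a (-1.17, adjusted p = 0.000378), Bdh1 (-1.25, adjusted p = 0.000303), Acot1, Acot3, Acot4 and Eci2. Pdk4, described below with glycogen, is not counted in this list and rose. Of 2 Cyp4a P450 genes tested 0 passed (median -0.26), and the sign of their median changed without maltose array 1. Eci2, which shifts double bonds during oxidation, fell from 0.71, 0.61 and 0.57 on the maltose arrays to 0.086, 0.19, 0.074 and 0.19 on the ethanol arrays (-0.50 ± 0.10 SE, adjusted p = 0.00920). Of 12 acyl-CoA thioesterases, which split fatty acyl-CoA into fatty acid and coenzyme A, 0 rose and 4 fell (median -0.20). They were Acot1 (-0.86 ± 0.20 SE, adjusted p = 0.0255), Acot3 (-2.97 ± 0.18 SE, adjusted p = 8.78e-07), Acot4 and Acot12. Acot3 was above background on 2 of the 4 ethanol arrays. Acot4, a peroxisomal form, read 0.83, 0.73 and 0.61 on the maltose arrays and -0.032, -0.0076, -0.57 and 0.015 on the ethanol arrays (-0.87 ± 0.15 SE, adjusted p = 0.00520), and a dimmer probe gave -1.71. Acot12, which cleaves acetyl-CoA in the cytosol, read 0.78, 0.56 and 0.28 on the maltose arrays and -0.11, -0.065, -0.46 and -0.18 on the ethanol arrays (-0.75 ± 0.13 SE, adjusted p = 0.00574). In Acot4 ethanol array 3 lay apart from the other ethanol arrays, and in both genes the groups did not overlap. Acsm5, a ligase for medium-chain acids, fell from 0.24, 0.64 and 0.63 on the maltose arrays to -0.43, -0.16, -0.39 and -0.55 on the ethanol arrays (-0.88 ± 0.13 SE, adjusted p = 0.00135). Fabp2, a fatty acid carrier, fell from 0.73, 0.57 and 0.46 on the maltose arrays to 0.14, 0.046, -0.051 and -0.12 on the ethanol arrays (-0.58 ± 0.11 SE, adjusted p = 0.00909). Eci2 kept its call in 6 of 7 fits without 1 array (adjusted p up to 0.0576, without maltose 1), Acot1 in 2 (adjusted p up to 0.145, without maltose 1) and Fabp2 in 6 (adjusted p up to 0.0600, without maltose 1).

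Elongases and desaturases, which lengthen fatty acids and add double bonds, differed by member. Elovl1, which makes very long saturated chains, rose from -0.77, -0.71 and -0.97 on the maltose arrays to 0.12, -0.063, 0.056 and 0.012 on the ethanol arrays (0.84 ± 0.11 SE, 1.80-fold higher, adjusted p = 0.000525). Elovl2, which extends polyunsaturated fatty acids, fell, reading 0.97, 0.43 and 0.21 on the maltose arrays and -0.34, -0.65 and -0.46 on ethanol arrays 1, 3 and 4 (-1.02 ± 0.17 SE, adjusted p = 0.00407). Fads2, the desaturase that opens the same route, read 0.57 and 0.11 on maltose arrays 1 and 2 and -0.72 and -0.49 on ethanol arrays 3 and 4 (-0.95 ± 0.18 SE, adjusted p = 0.0160); no slide held values of both groups. Apoa5, which aids clearance of plasma triglyceride, read 0.66, 0.42 and 0.18 on the maltose arrays and -0.36, -0.28 and -0.56 on ethanol arrays 1, 3 and 4 (-0.82 ± 0.20 SE, adjusted p = 0.0380). Of the apolipoprotein L genes, Apol7c read 0.64, 0.97 and 0.86 on the maltose arrays and -0.44, 0.10, -0.20 and -0.048 on the ethanol arrays (-0.97 ± 0.13 SE, adjusted p = 0.000880) and Apol9b read 0.27, 0.42 and 0.33 on the maltose arrays and -0.14 and -0.18 on ethanol arrays 1 and 3 (-0.50 ± 0.12 SE, adjusted p = 0.0394). Angptl8, a feeding-induced inhibitor of lipoprotein lipase, read -1.46, -0.96 and -1.38 on the maltose arrays and 0.24, -0.43, -0.22 and -0.091 on the ethanol arrays. It rose by 1.14 ± 0.17 SE, 2.20-fold higher, adjusted p = 0.00145, with each ethanol array above each maltose array. Fads2 passed in 5 of 7 leave-one-out fits (adjusted p up to 0.119, without maltose 1), Apoa5 in 1 (adjusted p up to 0.169, without maltose 1) and Apol9b in 2 (adjusted p up to 0.155, without ethanol 3). Fads2 (adjusted p = 0.330), Apoa5 (adjusted p = 0.107) and Apol9b (adjusted p = 0.186) did not pass with a slide block.

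The liver clock is a loop in which CLOCK and BMAL1 (Arntl) drive Per, Cry and Nr1d genes, whose products repress them, and which runs output factors of the PAR family such as Dbp and Tef. Of 16 core clock genes 2 rose and 2 fell, and of 11 output genes 1 rose and 3 fell (median -0.23), with Gys2, described below, among the 3. Dbp fell by 1.94 ± 0.13 SE, 3.84-fold lower, adjusted p = 1.45e-06. Tef, its close relative, read 0.84, 0.83 and 0.82 on the maltose arrays and 0.16, 0.077, 0.056 and -0.014 on the ethanol arrays (-0.76 ± 0.12 SE, adjusted p = 0.00300), with values within 0.02 of each other on the maltose arrays. Per3 read 0.69, 0.54 and 0.66 on the maltose arrays and -0.20, -0.073, -0.59 and -0.57 on the ethanol arrays (-0.99 ± 0.13 SE, adjusted p = 0.000648). Dbp and Tef bind the D-box, spelled here as TTATGTAA or TTACGTAA on both strands, which was in 1.06% of the promoters of the same length. The Per3 promoter held it 2 times, shown in capitals, at chr4:151044796-151044890 (minus strand), the only one of the 4 passing core clock genes with a match.
Per3: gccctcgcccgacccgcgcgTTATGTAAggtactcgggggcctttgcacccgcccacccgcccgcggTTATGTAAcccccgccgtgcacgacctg
The E-box CACGTG of CLOCK and BMAL1 was in 7.15% of promoters, in that of Tef and in 0 of 4 passing core clock genes. Nr1d1, the repressor REV-ERB alpha, read 0.70, 0.06 and 0.052 on the maltose arrays and -0.20, -0.38, -0.22 and -0.49 on the ethanol arrays (-0.60 ± 0.15 SE, adjusted p = 0.0425), with maltose array 1 far above the others. Clock rose from 0.00014, -0.29 and -0.36 on the maltose arrays to 0.34, 0.28, 0.32 and 0.28 on the ethanol arrays (0.52 ± 0.13 SE, adjusted p = 0.0354), and the kinase Csnk1e, which marks PER proteins, from -0.37, -0.36 and -0.40 on the maltose arrays to 0.11, 0.17, -0.15 and 0.16 on the ethanol arrays (0.45 ± 0.11 SE, adjusted p = 0.0394). Nfil3, which binds the D-box as a repressor, read -1.15, -0.79 and -0.96 on the maltose arrays and -0.46, 0.13, 0.30 and -0.52 on the ethanol arrays (0.83 ± 0.20 SE, adjusted p = 0.0304), and a dimmer probe of it gave 0.11 ± 0.14 SE. Per1 (-0.034, adjusted p = 0.948), Per2 (0.015, adjusted p = 0.975), Cry1 (0.14, adjusted p = 0.702), Arntl (0.20, adjusted p = 0.516) and Npas2 (0.11, adjusted p = 0.820) did not pass. Klf15, a factor with a daily rhythm in liver, fell from 0.38, 0.35 and 0.31 on the maltose arrays to -0.49, -0.068, -0.55 and -0.012 on the ethanol arrays (-0.62 ± 0.13 SE, adjusted p = 0.0145). The hour of collection is not in the labels, so where these values lie in the daily cycle cannot be said. Nr1d1 kept its call in 2 of 7 fits without 1 array (adjusted p up to 0.197, without maltose 1), Clock in 1 (adjusted p up to 0.161, without maltose 3), Csnk1e in 1 (adjusted p up to 0.130, without maltose 3) and Nfil3 in 2 (adjusted p up to 0.149, without maltose 1). Klf15 kept its call in 5 of 7 fits without 1 array (adjusted p up to 0.0679, without maltose 1). Csnk1e (adjusted p = 0.0651) did not pass once slide was a block.

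Glycogen genes changed on both sides of storage. Of 14 tested 2 rose and 3 fell. Gys2, the liver glycogen synthase, read 1.10, 0.58 and 0.50 on the maltose arrays and -0.44, -0.38, -0.041 and -0.43 on the ethanol arrays (-1.05 ± 0.15 SE, 2.07-fold lower, adjusted p = 0.00118). Phka2, the regulatory subunit of phosphorylase kinase, read 0.50, 0.31 and 0.47 on the maltose arrays and -0.24, -0.061, -0.50 and -0.13 on the ethanol arrays (-0.66 ± 0.11 SE, adjusted p = 0.00486), and Pgm1, which links glycogen to glycolysis, fell from 0.57, 0.63 and 0.37 on the maltose arrays to 0.18, 0.088, 0.11 and -0.015 on the ethanol arrays (-0.43 ± 0.10 SE, adjusted p = 0.0274). Pygl, which breaks glycogen down, rose from -0.84, -0.45 and -0.77 on the maltose arrays to -0.17, -0.085, 0.011 and 0.031 on the ethanol arrays (0.63 ± 0.12 SE, adjusted p = 0.00961), and the branching enzyme Gbe1 rose by 0.49 ± 0.11 SE, adjusted p = 0.0252. For each of these 5 genes the groups were apart. Of fructose genes, the kinase Khk rose from -1.45, -1.03 and -1.37 on the maltose arrays to -0.47, -0.41 and -0.62 on ethanol arrays 1, 2 and 3 (0.78 ± 0.14 SE, adjusted p = 0.00640), and the transporter Slc2a5 fell from 0.21, 0.38 and 0.55 on the maltose arrays to -0.42, -0.071, -0.58 and -0.65 on the ethanol arrays (-0.81 ± 0.16 SE, adjusted p = 0.00909). Pdk4, which blocks pyruvate oxidation, rose from -0.21, -0.40 and -0.36 on the maltose arrays to 0.11, 0.36, 0.74 and 0.26 on the ethanol arrays (0.69 ± 0.14 SE, adjusted p = 0.0121). G6pc, the last enzyme of glucose release, read -0.53, -0.38 and -1.04 on the maltose arrays and -0.033, -0.43 and 0.38 on ethanol arrays 1, 3 and 4 and did not pass (0.62, adjusted p = 0.496). Pgm1 kept its call in 2 of 7 fits without 1 array (adjusted p up to 0.122, without maltose 1), Pygl in 5 (adjusted p up to 0.0631, without maltose 1), Gbe1 in 3 (adjusted p up to 0.142, without maltose 1) and Slc2a5 in 6 (adjusted p up to 0.0552, without maltose 3). Pdk4 kept its call in 5 of 7 fits without 1 array (adjusted p up to 0.0564, without maltose 2).

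In the growth hormone, insulin and IGF axis 1 of 16 genes rose and 2 fell. Igfbp1, an IGF-binding protein that insulin represses, read -1.06, -2.85 and -2.04 on the maltose arrays and -0.45, 0.29 and -0.49 on ethanol arrays 1, 3 and 4 (1.77 ± 0.36 SE, adjusted p = 0.0143), with maltose arrays far apart and no overlap. Igfbp2 fell from 1.11, 0.18 and 0.55 on the maltose arrays to -0.10, -0.076, -0.011 and -0.22 on the ethanol arrays (-0.71 ± 0.18 SE, adjusted p = 0.0450), with maltose array 1 the highest. Igfals, described above, was the other member that fell. Igf1 itself read -0.083, 0.077 and -0.034 on the maltose arrays and -0.14, -0.094, -0.32 and -0.031 on the ethanol arrays and did not pass (-0.13, adjusted p = 0.653), nor did the receptor Ghr (-0.37, adjusted p = 0.347). Igfbp1 kept its call in 5 of 7 fits without 1 array (adjusted p up to 0.0623, without ethanol 3) and Igfbp2 in 1 (adjusted p up to 0.220, without maltose 1). Igfbp2 (adjusted p = 0.0596) did not pass with a slide block.

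Methyl transfer starts from S-adenosylmethionine, and of 24 genes of this cycle 4 rose and 2 fell. Nnmt, which methylates nicotinamide, read -0.90, -1.80 and -1.26 on the maltose arrays and 0.48, 0.27, 0.48 and -0.05 on the ethanol arrays (1.61 ± 0.20 SE, 3.06-fold higher, adjusted p = 0.000354). Inmt, which methylates indoles and thioethers, moved the opposite way, at 0.22, 0.95 and 0.92 on the maltose arrays and -1.27, -0.54, -1.05 and -0.48 on the ethanol arrays (-1.53 ± 0.20 SE, 2.90-fold lower, adjusted p = 0.000648). Neither gene showed overlap, and the within-slide differences were 1.21 to 2.07 and -1.50 to -1.40. Mat2a, the methionine adenosyltransferase of most tissues, rose from -0.69, -0.68 and -1.02 on the maltose arrays to -0.19, -0.20, -0.18 and -0.22 on the ethanol arrays (0.60 ± 0.11 SE, adjusted p = 0.00744), while the hepatocyte form Mat1a did not pass (0.51, adjusted p = 0.129). Bhmt, which remakes methionine from betaine, rose by 0.98 ± 0.15 SE, adjusted p = 0.00198 as a log ratio, with Cy5 alone at 0.16 and Cy3 alone at -0.49. Odc1, the first enzyme of polyamine synthesis, rose by 0.52 ± 0.12 SE, adjusted p = 0.0254, and Pemt, which makes phosphatidylcholine, fell from 0.076, 0.12 and -0.04 on the maltose arrays to -0.26, -0.30, -0.42 and -0.54 on the ethanol arrays (-0.43 ± 0.11 SE, adjusted p = 0.0335). Odc1 passed in 3 of 7 leave-one-out fits (adjusted p up to 0.135, without maltose 3) and Pemt in 1 (adjusted p up to 0.128, without maltose 1). Pemt (adjusted p = 0.0651) did not pass once slide was a block.

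Ethanol oxidation turns NAD to NADH. Of 19 genes of NAD synthesis and sirtuins 3 rose, Nnmt among them, and 3 fell. Acmsd, which diverts tryptophan away from NAD, read -0.16, -0.63 and -0.70 on the maltose arrays and 0.40, 0.73, -0.053 and 0.54 on the ethanol arrays (0.90 ± 0.18 SE, adjusted p = 0.0111). Cd38, which consumes NAD, read -0.81, -0.22 and -0.52 on the maltose arrays and 0.076, 0.37, 0.49 and 0.11 on the ethanol arrays (0.78 ± 0.15 SE, adjusted p = 0.00776). Qprt, the step from quinolinate towards NAD, fell from 0.14, 0.084 and -0.024 on the maltose arrays to -0.51, -0.16, -0.48 and -0.49 on the ethanol arrays (-0.48 ± 0.12 SE, adjusted p = 0.0461), and Nmrk1, the nicotinamide riboside kinase, fell by 0.49 ± 0.12 SE, adjusted p = 0.0396. Sirt3, the mitochondrial deacetylase, fell from 0.19, 0.28 and 0.30 on the maltose arrays to -0.32, -0.25, -0.45 and -0.34 on the ethanol arrays (-0.59 ± 0.10 SE, adjusted p = 0.00342). In none of these genes did the groups overlap. Amino acid enzymes were mixed, and of 24 genes of the urea cycle and amino acid catabolism 2 rose and 4 fell. Kynu, of tryptophan breakdown, rose by 0.50 ± 0.12 SE, adjusted p = 0.0271. Gldc, of glycine cleavage, rose from -0.035, -0.27 and -0.37 on the maltose arrays to 0.36, 0.49, 0.16 and 0.65 on the ethanol arrays (0.64 ± 0.14 SE, adjusted p = 0.0194). Hal, of histidine breakdown, fell, reading 1.04, 0.43 and 0.41 on the maltose arrays and -0.058, -0.44 and -0.17 on ethanol arrays 1, 3 and 4 (-0.85 ± 0.19 SE, adjusted p = 0.0261). Oat, of ornithine, fell by 0.61 ± 0.13 SE, adjusted p = 0.0191, Bckdha, of branched chains, fell by 0.43 ± 0.093 SE, adjusted p = 0.0178, and Etnppl, which degrades phosphoethanolamine, fell by 1.31 ± 0.26 SE, adjusted p = 0.0113. Acmsd kept its call in 5 of 7 fits without 1 array (adjusted p up to 0.0657, without maltose 3), Cd38 in 6 (adjusted p up to 0.0519, without maltose 1), Qprt in 1 (adjusted p up to 0.185, without maltose 1) and Nmrk1 in 1 (adjusted p up to 0.142, without maltose 3). Kynu kept its call in 3 of 7 fits without 1 array (adjusted p up to 0.130, without maltose 3), Gldc in 4 (adjusted p up to 0.102, without maltose 3), Hal in 5 (adjusted p up to 0.121, without maltose 1) and Oat in 4 (adjusted p up to 0.153, without maltose 1). Bckdha kept its call in 5 of 7 fits without 1 array (adjusted p up to 0.0820, without maltose 1) and Etnppl in 6 (adjusted p up to 0.0712, without maltose 1). Qprt (adjusted p = 0.0642) and Nmrk1 (adjusted p = 0.0634) did not pass with a slide block.

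Metallothioneins bind zinc and copper and are switched on by the zinc sensor MTF1, by glucocorticoids and by interleukin-6. Of 22 metallothioneins and zinc transporters tested 4 rose and 0 fell. Mt1 read -2.36, -2.16 and -1.45 on the maltose arrays and 0.96, 0.97, 1.48 and 0.46 on the ethanol arrays (2.96 ± 0.22 SE, adjusted p = 5.37e-06). Mt2 read -2.27, -1.93 and -1.37 on the maltose arrays and 0.14, 0.74, 1.19 and 0.17 on the ethanol arrays (2.42 ± 0.24 SE, adjusted p = 6.79e-05). The groups were far apart, but in both the reference channel moved the other way, with Cy5 alone at 1.60 and Cy3 alone at -0.98 for Mt1, and 1.75 and -0.60 for Mt2. The other 2 were Slc39a14, a zinc and iron importer, at -1.26, -0.99 and -1.01 on the maltose arrays and 0.035, 0.31, 0.51 and -0.41 on the ethanol arrays (1.20 ± 0.20 SE, 2.29-fold higher, adjusted p = 0.00386), and Slc30a10, a manganese exporter, from -1.25, -0.60 and -1.33 on the maltose arrays to -0.34, -0.29, -0.43 and -0.55 on the ethanol arrays (0.66 ± 0.15 SE, adjusted p = 0.0241). The core of the metal response element, spelled here as TGCGCNC or TGCACNC on both strands, was in 25.7% of promoters. Of the passing genes Mt1, Mt2 and Slc30a10 had a promoter in the table, and 3 of 3 held it, as did 9 of 16 that did not pass, so the core alone is common. The stretches of Mt1 (chr8:94179046-94179088 (plus strand)) and Mt2 (chr8:94172375-94172594 (plus strand)) show it in capitals.
Mt1: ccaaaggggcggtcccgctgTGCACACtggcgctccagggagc
Mt2: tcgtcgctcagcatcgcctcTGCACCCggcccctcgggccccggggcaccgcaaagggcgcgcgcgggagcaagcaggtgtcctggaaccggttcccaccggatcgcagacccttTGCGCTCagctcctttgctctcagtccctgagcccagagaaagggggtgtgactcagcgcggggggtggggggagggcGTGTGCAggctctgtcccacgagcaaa
Slc41a2, a magnesium carrier, read -2.27, -1.71 and -2.53 on the maltose arrays and -0.34, -0.52, -0.019 and -1.58 on the ethanol arrays (1.56 ± 0.29 SE, adjusted p = 0.00884). Slc30a10 passed in 2 of 7 leave-one-out fits (adjusted p up to 0.132, without maltose 1) and Slc41a2 in 6 (adjusted p up to 0.0529, without maltose 3).

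Of 25 iron genes 3 rose and 2 fell. Hamp2, a second hepcidin gene whose product is not the main iron hormone, fell from 0.46, 0.71 and -0.0058 on the maltose arrays to -0.49, -0.18, -0.33 and -0.47 on the ethanol arrays (-0.76 ± 0.15 SE, adjusted p = 0.00912), while Hamp, the hepcidin of iron control, read 0.32, 0.67 and -0.0087 on the maltose arrays and 0.10, 0.55, 0.91 and -0.78 on the ethanol arrays and did not pass (-0.13, adjusted p = 0.901). The 2 are similar copies, and their probes may overlap. Tfrc, the transferrin receptor, fell from 0.63, 0.10 and 0.40 on the maltose arrays to -0.31, -0.27, -0.085 and -0.46 on the ethanol arrays (-0.66 ± 0.14 SE, adjusted p = 0.0162). Hjv, the co-receptor that signals to hepcidin, rose from -0.38, -0.31 and -0.21 on the maltose arrays to 0.16, 0.32, 0.046 and 0.10 on the ethanol arrays (0.46 ± 0.10 SE, adjusted p = 0.0175). Lcn2, which binds bacterial iron carriers and is also in the neutrophil list, read -4.52, -4.30 and -4.14 on the maltose arrays and -0.46, -1.19, -0.057 and -2.73 on the ethanol arrays (3.21 ± 0.46 SE, adjusted p = 0.00140). Alad, the second enzyme of haem synthesis, fell from 0.30, 0.61 and 0.32 on the maltose arrays to -0.052, -0.13, -0.46 and -0.37 on the ethanol arrays (-0.67 ± 0.12 SE, adjusted p = 0.00715). Hamp2 kept its call in 6 of 7 fits without 1 array (adjusted p up to 0.0522, without maltose 1), Tfrc in 5 (adjusted p up to 0.100, without maltose 1) and Hjv in 4 (adjusted p up to 0.0930, without maltose 1).

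**Figure D5:**
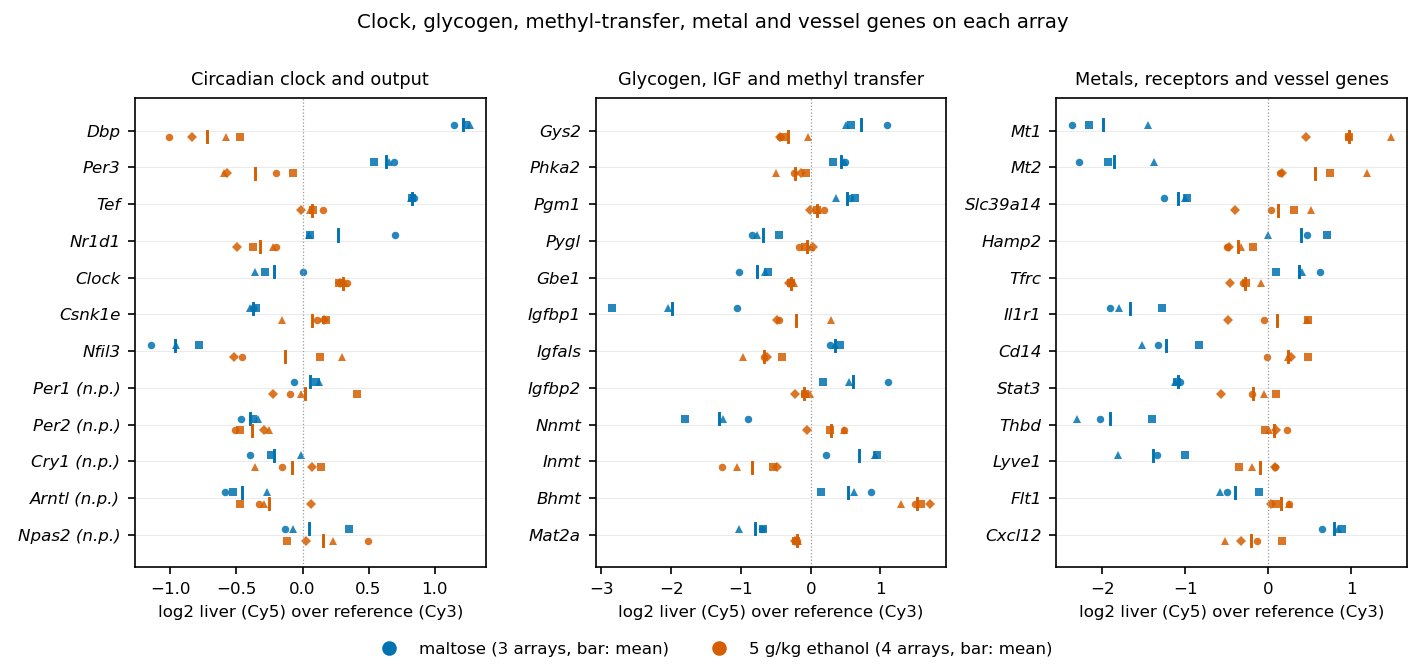
Log2 liver over reference on each maltose array (blue, n = 3) and ethanol array (orange, n = 4) for clock genes, glycogen, IGF and methyl-transfer genes, and metal, receptor and vessel genes, with group means as bars and n.p. for genes that did not pass. Dbp and Per3 lie lower after ethanol with no overlap, Per1 and Per2 overlap, and Mt1, Il1r1 and Thbd lie higher.

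Vessel genes rose in part. Of 19 markers of sinusoidal endothelium 4 rose and 0 fell (median 0.12; 0.11 to 0.27 on the ethanol arrays and -0.04 to 0.04 on the maltose arrays). Flt1, a VEGF receptor, read -0.50, -0.12 and -0.59 on the maltose arrays and 0.25, 0.088, 0.24 and 0.033 on the ethanol arrays (0.55 ± 0.12 SE, adjusted p = 0.0176). Cdh5, the cadherin of endothelial junctions, read -0.56, -0.28 and -0.67 on the maltose arrays and 0.36, -0.28, -0.0057 and 0.27 on the ethanol arrays (0.59 ± 0.15 SE, adjusted p = 0.0455), and its groups touched: on the slide of maltose array 2 the difference was -0.0027. Stab1, a scavenger receptor, rose from -0.39, -0.38 and -0.41 on the maltose arrays to 0.20, -0.0041, -0.14 and -0.02 on the ethanol arrays (0.40 ± 0.10 SE, adjusted p = 0.0485), and Lyve1, a hyaluronan receptor, by 1.29 ± 0.19 SE, adjusted p = 0.00154. Thbd, thrombomodulin, which turns thrombin to an anticoagulant role, read -2.03, -1.40 and -2.31 on the maltose arrays and 0.23, -0.04, 0.0072 and 0.088 on the ethanol arrays. Its fitted difference of the log ratio was 1.98 ± 0.19 SE, adjusted p = 4.66e-05. It was not well above background on any maltose array, so the Cy5 signal there is only a bound. On the scale of the Cy5 signal after loess and quantile normalisation of the spot averages, which is not the log ratio and is open to dye bias, the mean log2 level was 8.38 after ethanol against a bound of 6.33 after maltose (measured mean 6.32), at least 4.12-fold higher. Aqp1, a water channel of sinusoidal and bile duct cells, rose from -0.56, -0.34 and -0.58 on the maltose arrays to 0.17, 0.081, 0.35 and 0.10 on the ethanol arrays (0.67 ± 0.13 SE, adjusted p = 0.0105), and Igfbp7 by 0.45 ± 0.10 SE, adjusted p = 0.0255. Over leave-one-out fits 1 to 3 of the 19 markers rose. Flt1 passed in 4 of 7 leave-one-out fits (adjusted p up to 0.0995, without maltose 3), Cdh5 in 2 (adjusted p up to 0.188, without maltose 3), Stab1 in 1 (adjusted p up to 0.148, without maltose 1) and Aqp1 in 5 (adjusted p up to 0.0582, without maltose 1). Igfbp7 passed in 2 of 7 leave-one-out fits (adjusted p up to 0.124, without maltose 1). Cdh5 (adjusted p = 0.0851) and Igfbp7 (adjusted p = 0.0545) did not pass once slide was a block.

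Few markers of other liver cells passed. In the cholangiocyte, neutrophil and lymphocyte lists 1 gene each passed (8.33%, 7.69% and 7.69%), beside 5.10% of genes with a symbol. The lymphocyte count was 0 with a slide block, and the cholangiocyte count was 0 in some leave-one-out fits. Such single calls are not read as results about a cell type. Of 19 stellate cell and fibroblast markers 2 rose and 0 fell (median 0.12), and 2 rose in each leave-one-out fit. They were Dcn, the matrix proteoglycan decorin, at -0.19, -0.37 and -0.83 on the maltose arrays and 0.29, 0.48, 0.13 and 0.19 on the ethanol arrays (0.74 ± 0.14 SE, adjusted p = 0.00998), and Hgf, the hepatocyte growth factor made by stellate cells, at -0.40, -0.26 and -0.53 on the maltose arrays and 0.42, 0.14, 0.42 and 0.24 on the ethanol arrays (0.70 ± 0.11 SE, adjusted p = 0.00212). Of 12 cholangiocyte markers 1 fell, Spp1 (-0.48 ± 0.10 SE, adjusted p = 0.0187), which encodes osteopontin. Of 15 Kupffer cell and macrophage markers 0 passed in limma (median -0.03, from -0.12 to 0.08 on the ethanol arrays), with 0 at an unadjusted p under 0.05; Clec4f (0.091, adjusted p = 0.776) and Adgre1 (-0.075, adjusted p = 0.821), named after their values were seen, define the cell. Of 13 neutrophil markers Lcn2 passed, and the neutrophil calprotectin genes S100a8 (0.39, adjusted p = 0.271) and S100a9 (0.51, adjusted p = 0.263) did not, both highest on ethanol array 3. S100a8 was not well above background on any maltose array, so its signal there is only a bound. Of 13 lymphocyte markers 1 rose, Nkg7, a granule protein of killer cells, from -1.33, -1.10 and -1.28 on the maltose arrays to -0.48, -0.56, -0.37 and -1.08 on the ethanol arrays (0.62 ± 0.15 SE, adjusted p = 0.0385). Their part in the rises of Cd14, Il1r1 or the acute phase genes was not tested. Of 18 chemokine and adhesion genes 3 rose and 1 fell. Ccl6, a myeloid chemokine, read -0.90, -0.83 and -1.24 on the maltose arrays and -0.017, 0.55, 0.29 and 0.14 on the ethanol arrays (1.23 ± 0.17 SE, 2.35-fold higher, adjusted p = 0.000880), and Ccl9 rose by 0.62 ± 0.13 SE, adjusted p = 0.0164. Cxcl12, which retains CXCR4-bearing cells, fell from 0.65, 0.89 and 0.84 on the maltose arrays to -0.14, 0.17, -0.52 and -0.32 on the ethanol arrays (-0.997 ± 0.16 SE, adjusted p = 0.00243). Sele, the endothelial adhesion molecule E-selectin, read -0.82, -0.52 and -0.32 on the maltose arrays and 0.26, 0.79, 0.42 and -0.0068 on the ethanol arrays (0.92 ± 0.19 SE, adjusted p = 0.0134). Leap2, a liver peptide that opposes ghrelin at its receptor, read -1.09, -0.67 and -1.02 on the maltose arrays and 0.64, 0.29, 0.80 and 0.34 on the ethanol arrays (1.44 ± 0.16 SE, 2.72-fold higher, adjusted p = 0.000229). Of 29 genes of BMP, TGF-beta and activin signalling 2 rose and 1 fell. Fst, which binds activin, rose from -1.05, -0.55 and -1.08 on the maltose arrays to 0.38, 0.32, 0.12 and 0.13 on the ethanol arrays (1.13 ± 0.13 SE, adjusted p = 0.000259), Tgfb3 by 0.45 ± 0.11 SE, adjusted p = 0.0298, and Inhbc, a liver activin subunit, fell from 0.26, 0.45 and -0.26 on the maltose arrays to -0.53, -0.83, -0.69 and -0.71 on the ethanol arrays (-0.84 ± 0.16 SE, adjusted p = 0.00912). Spp1 passed in 4 of 7 leave-one-out fits (adjusted p up to 0.0911, without maltose 2), Nkg7 in 1 (adjusted p up to 0.162, without maltose 1), Ccl9 in 5 (adjusted p up to 0.0835, without maltose 2) and Sele in 6 (adjusted p up to 0.0849, without maltose 1). Tgfb3 passed in 1 of 7 leave-one-out fits (adjusted p up to 0.114, without maltose 1) and Inhbc in 5 (adjusted p up to 0.0556, without maltose 1). Nkg7 (adjusted p = 0.0928) and Tgfb3 (adjusted p = 0.0608) did not pass with a slide block.

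Some growth and arrest genes passed. Of 30 genes of DNA replication and the cell cycle 0 rose and 2 fell, Pcna and Tk1 (-1.46 ± 0.14 SE, adjusted p = 6.79e-05). The share passing, 6.67%, lies near the 5.10% of genes with a symbol, and the list median was 0.0029. Of 22 genes of p53 and growth arrest 3 rose and 0 fell: Cdkn1a (2.53 ± 0.14 SE, adjusted p = 3.95e-07), Trp53inp1 (2.30 ± 0.34 SE, adjusted p = 0.00198) and the stress gene Gadd45b (0.69 ± 0.15 SE, adjusted p = 0.0200). Mcm10, which opens replication origins and is outside the list, read 0.66, 0.73 and 0.65 on the maltose arrays and -0.35, -0.18, -0.55 and -0.32 on the ethanol arrays (-1.03 ± 0.12 SE, 2.04-fold lower, adjusted p = 0.000237). Pcna, the polymerase clamp, fell from 0.14, 0.23 and 0.053 on the maltose arrays to -0.30, -0.10, -0.31 and -0.26 on the ethanol arrays (-0.39 ± 0.10 SE, adjusted p = 0.0433). Of 22 genes of ribosome biogenesis 0 rose and 1 fell (median -0.04), a share of 4.55% near the 5.10% of genes with a symbol. Npm1, a nucleolar chaperone of ribosome assembly, fell from 0.27, 0.42 and 0.42 on the maltose arrays to -0.24, -0.24, -0.50 and -0.15 on the ethanol arrays (-0.65 ± 0.11 SE, adjusted p = 0.00391). Chrac1, a subunit of chromatin remodellers, fell from 0.74, 0.49 and 0.41 on the maltose arrays to -0.64, -0.47, -0.41 and -0.38 on the ethanol arrays (-1.02 ± 0.12 SE, adjusted p = 0.000224). Paics, of purine synthesis, rose, reading -0.86, -0.67 and -0.94 on the maltose arrays and 0.30 and 0.81 on ethanol arrays 3 and 4 (1.38 ± 0.19 SE, adjusted p = 0.00182), with values on 2 ethanol arrays. Klf1, the erythroid factor, fell from 0.20, -0.24 and 0.22 on the maltose arrays to -0.75, -0.61, -0.82 and -0.73 on the ethanol arrays (-0.79 ± 0.12 SE, adjusted p = 0.00198). It was the only 1 of 6 red cell markers that passed, and 3 of the 6 had a positive and 3 a negative difference. The groups were apart for Mcm10, Pcna, Npm1, Chrac1, Paics and Klf1. Gadd45b passed in 4 of 7 leave-one-out fits (adjusted p up to 0.112, without maltose 3) and Pcna in 1 (adjusted p up to 0.160, without maltose 2). Gadd45b (adjusted p = 0.0576) and Pcna (adjusted p = 0.0816) did not pass once slide was a block.

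Of 13 enzymes of ethanol, acetaldehyde and acetate metabolism 0 rose and 4 fell, with a median difference of -0.33. Beside Adh1 (-0.61 ± 0.10 SE, adjusted p = 0.00411), Adh4 (-1.52 ± 0.12 SE, adjusted p = 7.22e-06) and Aldh3a2 (-0.70 ± 0.13 SE, adjusted p = 0.00578), the fourth was Adh5, which oxidises S-hydroxymethylglutathione and ethanol only weakly, from 0.14, 0.24 and 0.16 on the maltose arrays to -0.35, -0.0068, -0.23 and -0.26 on the ethanol arrays (-0.39 ± 0.10 SE, adjusted p = 0.0489). Of all 16 aldehyde dehydrogenases tested 1 rose and 2 fell, with a median of -0.037 that was 0.024 with a slide block. Of 13 pericentral hepatocyte markers 0 rose and 3 fell (median -0.20), and of 12 periportal markers 0 rose and 2 fell (median -0.12). Aldh3a2 is also among the 3 pericentral markers that fell. Without maltose array 1, 0 periportal markers fell and their median was 0.040. Without the same array 1 pericentral marker fell, while the pericentral median was -0.28 to -0.13 over the settings tried. Within the slide of maltose array 1 the pericentral median difference was 0.026. Keg1, a glycine acyltransferase-like gene, read 0.26, 0.91 and 0.88 on the maltose arrays and -0.76, -0.42, -0.67 and -0.83 on the ethanol arrays (-1.35 ± 0.15 SE, 2.55-fold lower, adjusted p = 0.000200). Nat8f1, an acetyltransferase-like gene, fell from 0.029, 0.58 and 0.39 on the maltose arrays to -0.88, -0.77, -0.95 and -0.82 on the ethanol arrays (-1.19 ± 0.13 SE, adjusted p = 0.000172). Keg1 and Nat8f1 had no overlap and kept their calls in each leave-one-out fit. Adh5 kept its call in 1 of 7 fits without 1 array (adjusted p up to 0.159, without maltose 2). Adh5 (adjusted p = 0.0669) did not pass with a slide block.

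Some mitochondrial genes passed as well. Of 77 mitochondrial ribosomal proteins 0 rose and 4 fell (median -0.12, with 57 negative), among them Mrpl14 (-0.48 ± 0.093 SE, adjusted p = 0.00912) and Mrps28 (-0.48 ± 0.093 SE, adjusted p = 0.00956). Mrpl3 (-0.41 ± 0.10 SE, adjusted p = 0.0272) and Mrps35 (-0.37 ± 0.10 SE, adjusted p = 0.0460) were the others. The share passing, 5.19%, lies near the 5.10% of genes with a symbol, of which 2.10% were lower. Over leave-one-out fits 1 to 4 of the family fell, and 2 with a slide block. Of 39 Slc25 carriers of the inner membrane 4 rose (10.3%) and 0 fell, and 1 to 3 rose over leave-one-out fits. Slc25a22, a glutamate carrier, read -1.07, -1.46 and -1.68 on the maltose arrays and 0.22, 0.10, -0.15 and 0.10 on the ethanol arrays (1.47 ± 0.14 SE, 2.77-fold higher, adjusted p = 4.41e-05). Slc25a47, a liver-specific carrier, read -0.43, -0.77 and -1.41 on the maltose arrays and 0.10, 0.45 and -0.10 on ethanol arrays 1, 3 and 4 (1.02 ± 0.22 SE, adjusted p = 0.0185). Slc25a44, for branched-chain amino acids, rose by 0.42 ± 0.10 SE, adjusted p = 0.0384. Slc16a6, a carrier of the monocarboxylate family, rose from -1.68, -1.55 and -1.41 on the maltose arrays to -0.33, -0.086, -0.27 and -0.50 on the ethanol arrays (1.25 ± 0.12 SE, 2.37-fold higher, adjusted p = 4.41e-05). Mrpl14 passed in 6 of 7 leave-one-out fits (adjusted p up to 0.0509, without maltose 2), Mrps28 in 6 (adjusted p up to 0.0558, without maltose 1), Mrpl3 in 2 (adjusted p up to 0.121, without maltose 1) and Mrps35 in 0 (adjusted p up to 0.188, without maltose 1). Slc25a47 passed in 5 of 7 leave-one-out fits (adjusted p up to 0.0741, without ethanol 3) and Slc25a44 in 0 (adjusted p up to 0.160, without maltose 3). Mrpl3 (adjusted p = 0.0613), Mrps35 (adjusted p = 0.0915) and Slc25a44 (adjusted p = 0.0784) did not pass once slide was a block.

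Large families with few or no calls set the scale. Of 689 olfactory and vomeronasal receptors, which liver is not known to use, 5 rose and 0 fell (median 0.01), a share under the 5.10% of genes with a symbol. Of 84 cytosolic ribosomal proteins (median -0.08), 44 proteasome subunits (median -0.13) and 39 subunits of respiratory complex I (median -0.06), 0 passed in limma. At an unadjusted p under 0.05 lay 6, 6 and 3 of them, in that order. Their medians on the ethanol arrays were below 0 but small beside those of the ER chaperones and acute phase proteins.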

How the data were processed

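Expression was read from 10 two-colour arrays, 7 of which enter this comparison. The authors deposited 1 scanner file per array, with median spot and background intensity in both channels from Agilent Feature Extraction 11.5.1.1, per the file headers. The scanner's processed intensity and log10 ratio, and a deposited series table of log2 ratios whose values follow those log10 ratios array by array, served as alternatives; the dyes, Cy5 liver and Cy3 reference, are per the labels. In R 4.3.3 with limma 3.58.1, intensities were background corrected (normexp, offset 50) and loess normalised within each array, with no step between arrays. Control and outlier-marked spots were left out, probes kept if Cy5 was well above background on at least 3 arrays, and the probe with the highest mean signal stands for a gene with at least 2 values in each group. Of 41174 probes, 24375 (59.2%) could be given a current gene symbol. One limma fit over all 10 arrays (3 group means, the 7 g/kg arrays adding to the estimate of spread) gave two-sided p-values, adjusted by Benjamini-Hochberg over 26124 genes.

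Genes were named if among the 40 highest or 40 lowest passing genes with a symbol and no overlap, among the 6 smallest p of a list or 4 of a family, or on a fixed list; some genes the rule chose are not reported here. The members and lists were chosen with earlier results of these data known. Alternatives covered background, normalisation, filters, probe choice, blocks and single arrays. Promoter letters are RefSeq's (GRCm38.p6, 32851 promoters).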

Additional observations from a re-analysis of the deposited data

Results flagged for a closer look

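With 4 values, 1 array was marked where its gap to the nearest other array, divided by the range of all 4, was above Dixon's 95% critical value. The ethanol group was checked for the 194 genes of the report with 4 values and for 50 list medians. Chance marks about 1 in 20 such groups, and 9 genes and 4 lists were marked.

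Ethanol array 3 stood apart for 4 genes of steroid, lipid and glycogen metabolism. It read -2.03 for Hsd3b5 (others -1.47 to -1.36), -0.99 for Akr1c6 (others -0.77 to -0.76) and -0.57 for Acot4 (others -0.03 to 0.01), below the rest, and -0.041 for Gys2 (others -0.44 to -0.38), nearer to maltose. Ethanol array 4 read -0.44 for Krt8 (others -0.01 to 0.06), -0.39 for Adh1 (others -0.27 to -0.25) and -0.015 for Hsd3b6 (others -0.31 to -0.27). Ethanol array 2 read -0.16 for Qprt (others -0.51 to -0.48) and -0.034 for Sult1b1 (others -0.31 to -0.28), both nearer to maltose than the rest.

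Of the list medians, each relative to the maltose mean, ethanol array 3 read 0.28 for heat shock genes (others 0.17 to 0.19) and 0.15 for iron genes (others -0.06 to -0.03). Ethanol array 1 read -0.13 for core clock genes (others -0.02), and ethanol array 2 read 0.19 for p53 and growth arrest genes (others 0.16).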

How the results depend on the processing

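The count of 992 passing genes (58.7% higher) rested on each maltose array: it was 469 without maltose 1, 634 without maltose 2 and 505 without maltose 3, and 679, 769, 686 and 937 without ethanol 1 to 4, a range of 469 to 937. It was 462 with the scanner's processed signals median centred, 584 with the deposited series table and 128 with Cy5 alone (70.3% higher), which tests the liver channel without its spot's reference. Median centring in place of loess gave 881 with 75.4% higher, so the balance of rises and falls depends on this choice. A replicate block, the replicate number as a fixed term, gave 921 (728 shared with the 992, 68.8% higher); deviations of same-numbered arrays correlated at 0.06, 0.20 and 0.02, so the numbers were not taken as pairs. The other settings gave 884 to 1302. Of 205 named genes that passed, 175 also passed with a slide block, 167 with the replicate block, 136 of 203 with the series table and 59 with Cy5 alone; 356 of 1435 leave-one-out values were past the threshold no longer. Signs were kept in all of these and in 564 of 565 within-slide differences, the exception being Cdh5 at -0.0027 on 1 slide. Where the groups of a gene do not overlap, the sign within a slide is fixed, so the within-slide signs are no separate check. Dim genes are limited by signal over background, bright ones by the reference channel, and 3 and 4 arrays limit the precision throughout.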
